A study of Homo sapiens with 12 samples.

Results

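The circular RNAs (circRNAs) described here were recovered at intermediate abundance with an antibody against IGF2BP2 and were also seen with control IgG. They are 259 of the 6384 circRNAs in the table. A circRNA was taken where its raw counts, summed over the 6 anti-IGF2BP2 libraries, were between 9 and 60 and where at least 1 count fell in any of the 6 IgG libraries. Of 262 circRNAs that met these counts, 3 were left out by name. One of the 3, hsa_circ_0060927, was called lower in the resistant line in the comparison given below, so the choice of members was not blind to that comparison. The members were thus chosen by measured values, their summed counts in the RIP and IgG libraries, so their RIP and IgG counts are given as a description, and only comparisons between the cell lines were tested.

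The libraries came from RNA immunoprecipitation and sequencing (RIP-seq) of MDA-MB-231, an established triple-negative breast cancer line. Sens cells are the parental line (genotype WT, no treatment). Res cells carry established resistance to BET inhibitors (BETi) and were kept under BETi until they were harvested, so resistance and presence of the drug cannot be told apart. Lysates of each line were incubated with 5 µg of anti-IGF2BP2 monoclonal antibody (the RIP libraries) or 5 µg of normal rabbit IgG, with 3 libraries for each of the 4 combinations. The labels name neither the inhibitor nor how Res was selected, and whether the replicates are separate cultures is not stated. The spread behind the p-values below may therefore be technical. The table holds circRNAs and spike-in transcripts without linear transcripts, so no marker of the cell line could be read from it, and it does not pair the circRNAs with host genes.

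A circRNA is a covalently closed transcript that forms when a downstream splice donor is joined to an upstream acceptor, and it lacks the free ends from which exonucleases start. IGF2BP2 is an RNA-binding protein of the insulin-like growth factor 2 mRNA-binding family, which reads methylated adenosine and influences how long bound transcripts last and how well they are translated. BET inhibitors displace bromodomain and extra-terminal proteins from acetylated chromatin. IgG that recognises no cellular antigen is the background control of a RIP, since RNA that sticks to beads or antibody is recovered with it as well.

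The libraries held between 1960 and 8662 circRNA counts, and ERCC spike-in transcripts took from 7.51% to 97.9% of all counts. A circRNA with no count in a library has an upper limit of 3 counts, which is 0.0346% to 0.153% of its circRNA counts. The IgG libraries were made of few circRNAs with several counts each. Of 475 circRNAs seen in Sens IgG, 77.7% were seen in all 3 libraries and 6.11% had a summed count of 1. In Sens RIP, 13.3% of 3487 were seen in all 3 libraries and 52.7% had a summed count of 1. Res IgG (1243 circRNAs, 72.0% and 4.75%) and Res RIP (4274 circRNAs, 16.3% and 45.7%) differed in the same way. The part of this pattern in the IgG comparisons was not tested.

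The 259 circRNAs made up a larger share of the circRNA counts in IgG than in the RIP. Their share was 21.6% ± 1.20 in Sens IgG and 22.6% ± 1.30 in Res IgG, against 14.8% ± 0.764 in Sens RIP and 16.5% ± 0.695 in Res RIP (SD, n = 3 each). Between 94 and 100 of them were seen in a Sens IgG library and between 185 and 197 in a Res IgG library. The RIP libraries showed 209 to 219 in Sens and 221 to 251 in Res. On the spike-in scale the order of the antibodies was the reverse, with 1117 ± 107 member counts per 1000 ERCC counts in Sens RIP and 4.76 ± 0.235 in Sens IgG. In Res the values were 1768 ± 423 and 15.4 ± 0.617. Per the labels' protocols, the spike-in was added to equal amounts of purified RNA, so this scale relates circRNA to the RNA put in, not to the amount precipitated. As in any bulk sample, fewer cells that carry a circRNA and less of it per cell cannot be told apart.

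Single members rested on few counts. The RIP sum had a median of 16 (quartiles 11 and 27.5, highest 59), and 114 members had 9 to 14, 85 had 15 to 29 and 60 had 30 or more. The IgG sum had a median of 14 (quartiles 8 and 26) and ran from 1 to 110. It exceeded the RIP sum in 104 of 259 members. Among the members, abundance in the RIP and in IgG went together only weakly, with median IgG sums of 13, 13 and 19.5 in the 3 RIP ranges. Both sums entered the rule that chose the members, so no wider relation can be read from this. In the RIP, 121 members were seen in all 6 libraries and 83 in 5. By group, the median summed count was 7 in Sens RIP, 10 in Res RIP, 0 in Sens IgG and 10 in Res IgG. Sens IgG was at 0 for 154 members and Res IgG for 51, whereas Sens RIP was at 0 for 7 and Res RIP for none.

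**Figure D1:**
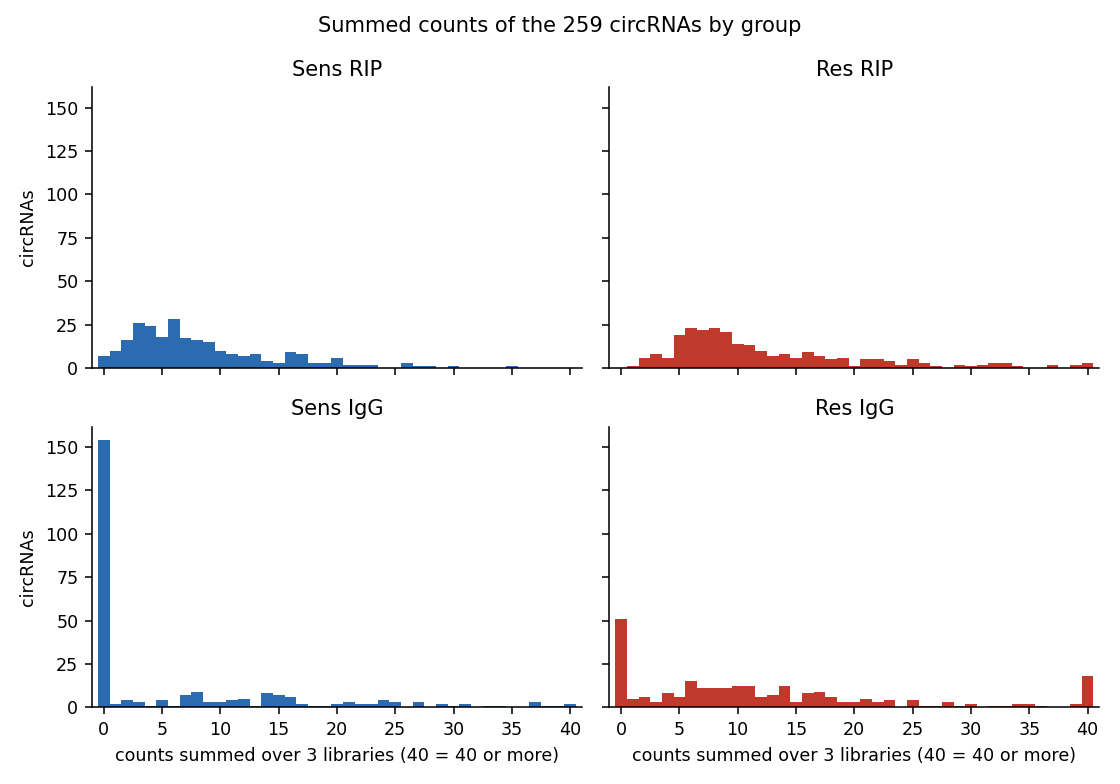
Histograms of the counts of each of the 259 circRNAs summed over the 3 libraries of a group; the x axis is the summed count (40 stands for 40 or more) and the y axis the number of circRNAs. The bar at 0 holds 154 circRNAs in Sens IgG, 51 in Res IgG and 7 in Sens RIP, and the Res RIP panel has none.

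At the lower threshold, 27 circRNAs with an IgG count had a RIP sum of 9 (median IgG sum 13, range 4 to 50), and 35 had a RIP sum of 8 and fell just outside (median 15, range 1 to 41). At the upper threshold, hsa_circ_0003472 and hsa_circ_0008351 had 59 RIP counts, no circRNA had 60, and hsa_circ_0001380, hsa_circ_0004846 and hsa_circ_0073706 lay just outside with 61. The last 3 had 172, 8 and 8 IgG counts, so neighbours across the threshold were recovered very differently by IgG.

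The members with the most RIP counts had no Sens IgG count. hsa_circ_0008351 had 3, 9 and 6 counts in the Sens RIP libraries, 14, 20 and 7 in Res RIP, and 7, 10 and 11 in Res IgG. hsa_circ_0003472 had 8, 9 and 5 counts in Sens RIP, 12, 18 and 7 in Res RIP, and 3, 6 and 5 in Res IgG. In both, the RIP libraries of the lines overlapped in CPM (a count as a share of the circRNA total, scaled with TMM factors). The members with the most IgG counts were of 2 kinds. hsa_circ_0083176 had 17, 14 and 16 counts in Sens IgG and 16, 13 and 19 in Res IgG, but only 3, 3 and 4 in Sens RIP and 1, 8 and 6 in Res RIP. Its log2 change from Sens to Res was 0.04 in IgG (95% interval -0.68 to 0.76) and 0.11 in the RIP (-1.08 to 1.31). hsa_circ_0000437 had 4, 1 and 2 counts in Sens IgG and 30, 28 and 45 in Res IgG, with no overlap.

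Among members with at least 30 RIP counts, hsa_circ_0003915 and hsa_circ_0005399 varied least between RIP libraries after scaling. hsa_circ_0003915 had 7, 6 and 6 counts in Sens RIP and 8, 12 and 5 in Res RIP (log2 change -0.08, 95% interval -1.12 to 0.96). hsa_circ_0005399 had 5, 5 and 6 in Sens RIP and 6, 8 and 3 in Res RIP (log2 change -0.38, 95% interval -1.56 to 0.79). Even for these members the interval included a 2-fold lower level in Res.

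Whether the RIP stood above IgG depended on the scale. In TMM-scaled CPM, the mean was higher in the RIP than in IgG for 212 of 259 members in Sens and for 176 in Res. With column totals these numbers were 168 and 110, and per 1000 ERCC counts they were 252 and 259. Most of the Sens number in TMM-scaled CPM came from members with no IgG count in that line, for which any RIP count puts the RIP above IgG. Among members with an IgG count in the line, the RIP was higher for 64 of 105 in Sens and 125 of 208 in Res. With column totals these numbers were 20 and 59, and per 1000 ERCC counts 104 and 208. Among the 105 members with a Sens IgG count, the median ratio of RIP to IgG was 1.16 in TMM-scaled CPM, 0.284 with column totals and 95.8 per 1000 ERCC counts. Among the 208 with a Res IgG count it was 1.28, 0.650 and 104.

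The first tested comparison asked which of these circRNAs were recovered differently with the IGF2BP2 antibody after resistance was established. Of the 259, 9 differed between Res RIP and Sens RIP, 5 higher and 4 lower in Res. That is 3.47% of the members, against a background of 2.37% over the 1307 circRNAs tested (1.30% higher and 1.07% lower) and 2.21% over the 997 of them with an IgG count. The members' share was thus near both of these shares. Members needed at least 9 RIP counts, however, which the circRNAs behind both backgrounds did not, and those could pass the filter on IgG counts alone. Of the circRNAs of the same RIP abundance with no IgG count, 2.23% were called, and of those with over 60 RIP counts 21.1%. Calls were made at an adjusted p under 0.05 in edgeR's quasi-likelihood test with Benjamini-Hochberg adjustment over all circRNAs tested. In the same test 44 members had an unadjusted p under 0.05. The share over all circRNAs tested was not computed for it, so no excess can be read from that number. The members' median log2 change was 0.09 (quartiles -0.47 and 0.97), beside 0 over all circRNAs tested. That 0 need not be a measured centre, because a circRNA with no RIP count in either line also has a fitted change of 0. The median was 0.31 over circRNAs of the same RIP abundance with no IgG count and 0.01 over those with over 60 RIP counts. With spike-in totals, the calls were 17 higher and 2 lower, and the median over all circRNAs tested moved from 0 to 0.39. Of the calls, 6 fell among the 60 members with 30 or more RIP counts, 2 among the 85 with 15 to 29 and 1 among the 114 with fewer.

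The number of calls rested on single libraries. It was 3 without Sens RIP replicate 2, 5 without Sens RIP replicate 3 and 3 without Res RIP replicate 2. It was 1 without Res IgG replicate 2, a library outside the comparison but inside the fit. The circRNAs tested stayed the same when a library was left out. Without Res IgG replicate 2 the log2 changes of the called members hardly moved, most for hsa_circ_0004496, from 5.61 to 5.57. Whether the scaling or the spread carried the loss of calls was not tested. With only the 6 RIP libraries in the fit it was 7. None of the 250 members without a call had a 95% interval that lay within 1 log2 unit of 0, so for none of them was a 2-fold change outside the interval on both sides.

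**Figure D2:**
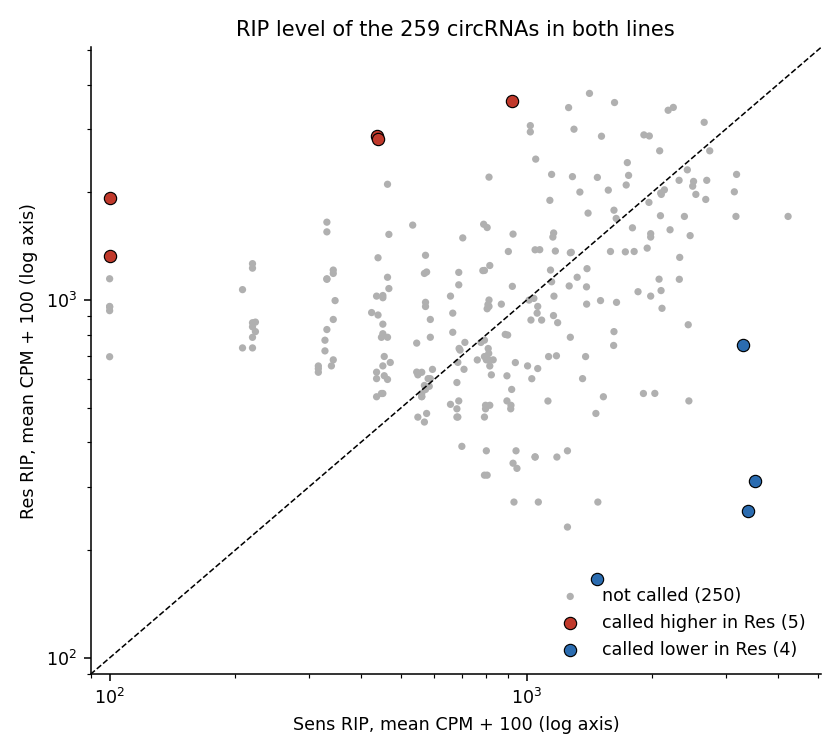
Mean TMM-scaled CPM of each of the 259 circRNAs in Sens RIP (x axis) and Res RIP (y axis), 3 libraries each, on log axes after adding 100; the dashed line marks equal levels. Most points lie around the line, with 5 called circRNAs above it, 4 below it and 250 not called.

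The 5 members that rose in Res RIP had summed Sens RIP counts of 0 to 7. hsa_circ_0087960 had 0 counts in every Sens RIP library and 9, 7 and 5 in Res RIP, at least 5.07-fold higher when Sens is set to 3 counts over the group (edgeR adjusted p = 0.000579). In IgG it went the same way, from 0 in every Sens library to 13, 42 and 30 in Res, at least 28.5-fold higher (edgeR adjusted p = 7.29e-18). With no Sens count from either antibody, no change in its enrichment over IgG could be measured. Ratios given as at least, here and below, take the higher group as counted, without its counting error, so the true ratio can be smaller.

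hsa_circ_0007919 had 2, 0 and 1 counts in Sens RIP and 8, 17 and 8 in Res RIP, with no overlap, a ratio of 7.97 (95% counting interval 2.50 to 40.6; log2 change 2.89, SE 0.74, edgeR adjusted p = 0.00839). Its IgG counts were 0 in Sens and 3, 10 and 16 in Res, at least 9.73-fold higher. The remaining members that rose were named after their values were seen. hsa_circ_0005450 had 2, 1 and 0 counts in Sens RIP and 9, 15 and 9 in Res RIP, a ratio of 7.97 (95% counting interval 2.50 to 40.6; edgeR adjusted p = 0.0111). Its Res IgG counts were 7, 1 and 6, against 0 in Sens IgG.

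hsa_circ_0001460 was the only one of the 5 with a count in Sens IgG. It had 2, 3 and 2 counts in Sens RIP and 16, 21 and 6 in Res RIP, a ratio of 4.45 (95% counting interval 1.99 to 11.7; edgeR adjusted p = 0.028). In IgG it had 1, 0 and 1 counts in Sens and 1, 5 and 6 in Res (log2 change 2.33, edgeR adjusted p = 0.0152). hsa_circ_0004496 had 0 counts from either antibody in Sens, 6, 7 and 2 in Res RIP and 1, 3 and 5 in Res IgG. Its RIP level was at least 3.62-fold higher in Res (edgeR adjusted p = 0.042), close to the threshold.

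Of 7 members with no Sens RIP count, which had 9 to 21 counts in Res RIP, hsa_circ_0087960 and hsa_circ_0004496 were the 2 that were called. Of the 7, 6 also had no Sens IgG count.

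The 4 members that fell in Res RIP were all present in Sens IgG. hsa_circ_0000591 had 17, 6 and 7 counts in Sens RIP and 0, 0 and 2 in Res RIP, a ratio of 20.7 (95% counting interval 5.25 to 179; log2 change -4.15, SE 0.79, edgeR adjusted p = 5.57e-05). In IgG it had 11, 2 and 6 counts in Sens and none in Res, at least 6.30-fold lower (edgeR adjusted p = 5.44e-05). It was thus lower in Res with both antibodies.

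hsa_circ_0003692 fell in the RIP without a call in IgG. It had 9, 9 and 10 counts in Sens RIP and 1, 1 and 0 in Res RIP, a ratio of 19.3 (95% counting interval 4.87 to 167; log2 change -4.08, SE 0.81, edgeR adjusted p = 0.000127). Its IgG counts overlapped, at 2, 4 and 5 in Sens and 2, 3 and 1 in Res (log2 change -0.82, edgeR adjusted p = 0.406). The change of its enrichment was -3.27 on the log2 scale (SE 1.27) and did not pass the threshold (edgeR adjusted p = 0.052).

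The other two were named after their values were seen. hsa_circ_0000831 had 7, 9 and 11 counts in Sens RIP and 3, 4 and 1 in Res RIP, a ratio of 4.66 (95% counting interval 2.06 to 11.9; edgeR adjusted p = 0.0289). Its IgG counts were 3, 2 and 4 in Sens and 1, 1 and 5 in Res, which overlapped (edgeR adjusted p = 0.883). hsa_circ_0007334 had 6, 4 and 2 counts in Sens RIP and 0, 1 and 0 in Res RIP, a ratio of 16.6 with a wide 95% counting interval of 2.45 to 708 (edgeR adjusted p = 0.046). In IgG it had 7, 9 and 4 counts in Sens and 0, 1 and 5 in Res (log2 change -1.70, edgeR adjusted p = 0.0299).

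The calls differed in how firmly they held. Over 22 other settings, hsa_circ_0003692 kept its call in all 22, and hsa_circ_0000591 and hsa_circ_0087960 in 21, with an adjusted p of 0.0576 each without Res IgG replicate 2. hsa_circ_0007919 and hsa_circ_0005450 kept theirs in 18 and hsa_circ_0001460 in 15. hsa_circ_0000831 and hsa_circ_0004496 kept theirs in 10 (of 21 settings with a value for the latter) and hsa_circ_0007334 in 6. No setting turned the direction of any of the 9.

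**Figure D3:**
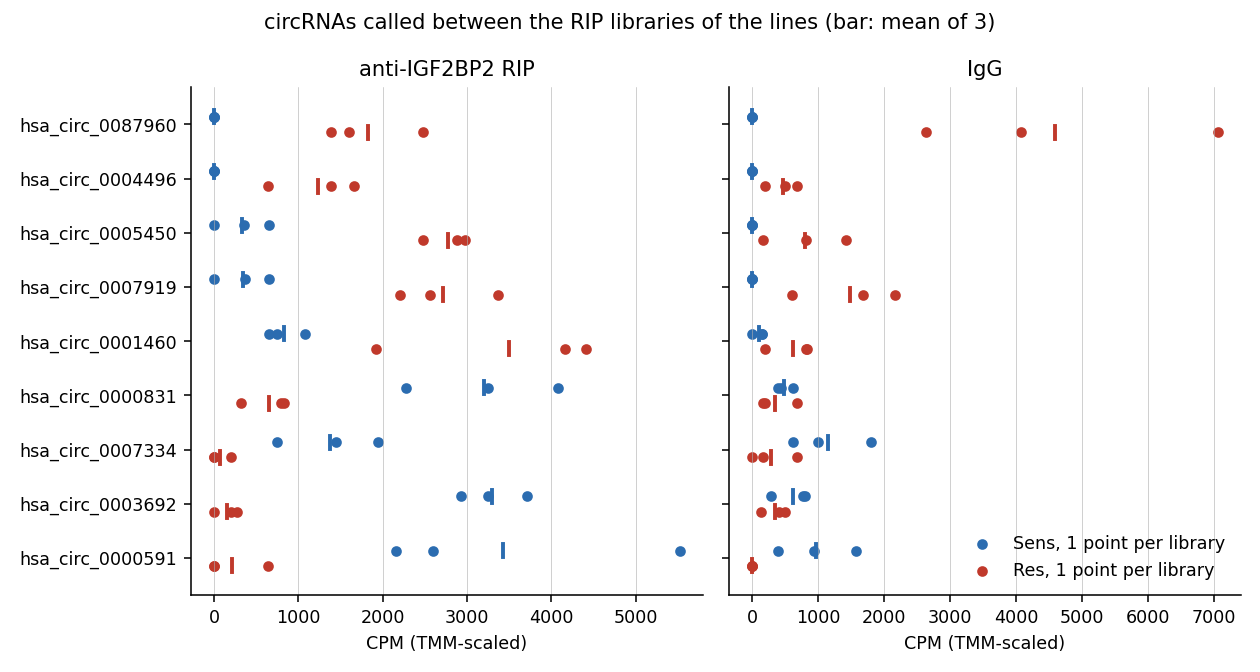
TMM-scaled CPM of the 9 circRNAs called between the RIP libraries of the lines, in the RIP (left) and in IgG (right); each point is 1 library and each bar the mean of 3. The 5 upper circRNAs are higher in Res and the 4 lower ones higher in Sens with the IGF2BP2 antibody, and the means in IgG lie in the same order in all 9.

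The fitted log2 change had the same sign in IgG as in the RIP for all 9, and 7 of the 9 were called in IgG in that direction. No other of the 9 was called in IgG, so 7 of 9 is also their count in either direction. Of all 259 members, 202 (78.0%) were called in IgG in either direction, a share near that of the 9. By direction, 57.9% of the members were called higher and 20.1% lower in Res IgG. The 78.0% is therefore no background for the shared direction. None of the 9 was called for a change of enrichment over IgG. The RIP and IgG comparisons between lines share no library. Among the 250 members without a RIP call, 61.6% had the same sign in both, as did 61.5% of the 13 other RIP-called circRNAs with an IgG count (8 of 13). Over all 259 members the 2 changes had a Spearman rho of 0.184, and over the 54 members seen in IgG of both lines a rho of 0.314, points that share their libraries and their scaling.

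The second comparison gives the control libraries of the lines against each other. In IgG, 202 of 259 members differed between Res and Sens, 150 higher and 52 lower in Res. This is 78.0% of the members, against a background of 67.6% over all circRNAs tested (49.3% higher and 18.3% lower). A member had to have an IgG count, and of the tested circRNAs with one, 88.6% were called. A circRNA could pass the filter of at least 2 counts in at least 3 libraries through 1 IgG group alone, the one where it is high. All these shares therefore depend on the filter and are given as a description. With column totals the split was 117 higher and 74 lower, 61.3% higher against 74.3% with TMM, and with spike-in totals 157 and 46. The median log2 change over all circRNAs tested was 1.68 with TMM, 0.88 with column totals and 2.15 with spike-in totals. The members' median was 3.73, beside 4.14 over the tested circRNAs with an IgG count. Of the members, 205 had a group at 0, where the fitted change is no bound. With such groups set to 3 counts the members' median was 1.23.

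hsa_circ_0087960 and hsa_circ_0000437 were the members with the smallest p among those higher in Res IgG. hsa_circ_0000437 differed 14.8-fold in IgG by summed counts scaled with TMM (95% counting interval 6.93 to 37.7; log2 change 3.80, SE 0.44, edgeR adjusted p = 2.11e-15). Its RIP counts were 8, 5 and 5 in Sens and 12, 17 and 10 in Res, a log2 change of 0.64 (95% interval -0.21 to 1.50, edgeR adjusted p = 0.622). The RIP libraries of the lines did not overlap for it, but of these differences only that in IgG was called. Its change of enrichment was also called, lower in Res (log2 change -3.16, SE 0.68, edgeR adjusted p = 0.000154).

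In the other direction, hsa_circ_0001165 had 15, 13 and 9 counts in Sens IgG and none in Res IgG, at least 12.3-fold lower (edgeR adjusted p = 4.78e-09). hsa_circ_0023936 had 14, 9 and 15 counts in Sens IgG and none in Res IgG, at least 12.6-fold lower (edgeR adjusted p = 6.22e-09). In the RIP, the lines overlapped for hsa_circ_0023936, at 7, 3 and 8 counts in Sens and 0, 11 and 7 in Res.

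By the IgG libraries that held them, 51 members (19.7%) were seen in Sens IgG only, 154 (59.5%) in Res IgG only and 54 (20.9%) in both. Res IgG also held more circRNAs of any kind than Sens IgG (1243 against 475) and more circRNA counts per library (means of 5097 and 2598). The same split over all circRNAs was not computed, so the excess of Res-only members cannot be read as particular to them. Presence was mostly complete: 86 of the 105 members seen in Sens IgG were in all 3 of its libraries, and 167 of the 208 in Res IgG. RIP libraries were sparser, with 161 of 252 members in all 3 Sens libraries and 187 of 259 in all 3 Res libraries. Median summed counts where seen were, however, higher in Sens IgG (14) than in Sens RIP (7).

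The RIP change is given next by this split, which the RIP counts did not enter. Members seen only in Res IgG had a median log2 RIP change from Sens to Res of 0.27 (quartiles -0.31 and 1.15), with 91 of 154 above 0. Those seen only in Sens IgG had a median of -0.29 (quartiles -0.55 and 0.23), with 14 of 51 above 0, and those seen in both had 0.10 (quartiles -0.71 and 0.81), with 29 of 54 above 0. The median of the Sens-only members was above 0 with spike-in totals, at 0.28, beside 0.67 for both and 0.83 for Res-only, so the order of the 3 stayed while the sign of the first did not. With column totals the medians were -0.22, 0.15 and 0.32.

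As a share of the circRNA counts of a library, Res-only members took 7.27% to 7.97% of the Sens RIP libraries and 8.79% to 10.6% of the Res RIP libraries, with no overlap. Sens-only members took 3.31% to 3.58% in Sens RIP and 2.45% to 3.38% in Res RIP, which overlapped. Members seen in both took 3.40% to 4.02% and 3.61% to 4.14%. Of the RIP counts, 63.2% lay in Res for Res-only members, 57.7% for both and 53.4% for Sens-only, beside 57.0% over all circRNAs. The split was chosen after the counts were seen and no test was made of it.

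**Figure D4:**
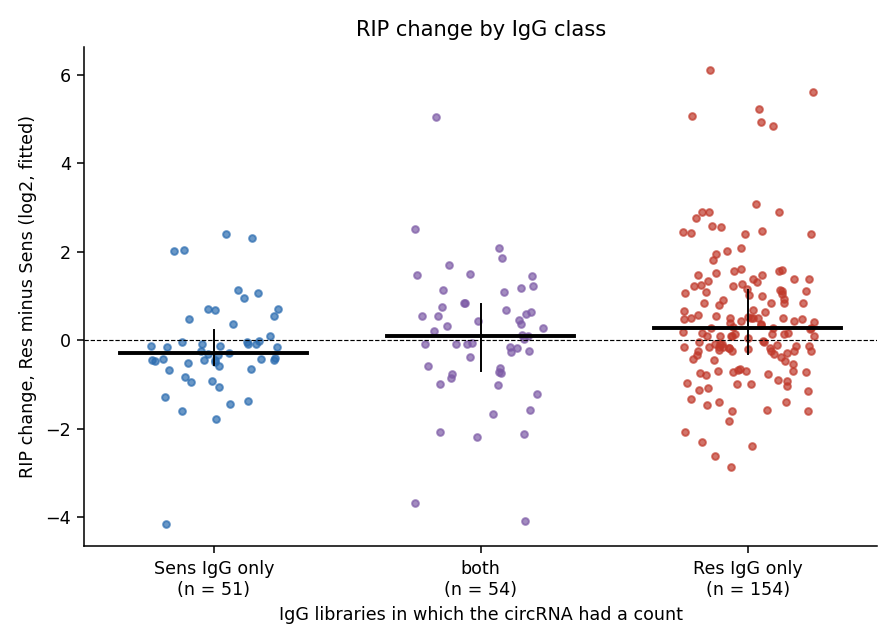
Fitted log2 RIP change from Sens to Res (y axis) of the 51 circRNAs seen in Sens IgG only, the 54 seen in IgG of both lines and the 154 seen in Res IgG only; each point is 1 circRNA, thick bars are medians and thin bars run between quartiles. The medians are -0.29, 0.10 and 0.27 on the TMM scale, and the 3 clouds overlap widely.

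The third comparison, which the series' design is built on, asked whether recovery by the IGF2BP2 antibody over IgG changed with resistance. The enrichment changed for 107 of 259 members, 29 higher and 78 lower in Res (edgeR, interaction term). This is 41.3%, against a background of 19.0% over all circRNAs tested (5.59% higher and 13.4% lower) and 24.9% over those with an IgG count. Members also needed at least 9 RIP counts, which the circRNAs behind the 24.9% did not. The higher share and the rule that chose the members therefore cannot be told apart. The comparison shares all its libraries with the 2 above. The members' median change was -2.72, beside -1.32 over all circRNAs tested and -3.07 over those with an IgG count. With groups at 0 set to 3 counts the members' median was -0.70, for which no background was computed. Column totals gave 44 higher and 50 lower, 46.8% higher against 27.1% with TMM, and spike-in totals gave 27 and 78. Leaving out Res IgG replicate 2 left 47 calls, and leaving out Sens IgG replicate 3 left 68.

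All but 1 of these members were also called between the IgG groups. Of the 29 higher members, 27 were seen only in Sens IgG and 28 were called in IgG. All 78 lower members were called in IgG, and 75 of them were seen only in Res IgG. None of the 107 was called in the RIP. The median log2 change of the 29 was -0.05 in the RIP and -5.09 in IgG, and that of the 78 was -0.20 in the RIP and 5.16 in IgG, where most IgG values come from a group at 0 and are no bounds.

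Enrichment rose for hsa_circ_0001165 and hsa_circ_0000816 with RIP counts that overlapped between the lines. hsa_circ_0001165 had 8, 6 and 6 counts in Sens RIP and 6, 9 and 10 in Res RIP. On the TMM scale its ratio of RIP to IgG was 1.16 in Sens (95% counting interval 0.639 to 2.05) and at least 12.9 in Res (log2 change of enrichment 6.16, SE 1.19, edgeR adjusted p = 2.23e-05). The Sens ratio was 0.285 with column totals and 97.0 with ERCC totals, so its direction depended on the scale, and the Res ratio was at least 6.51 and at least 1013. hsa_circ_0000816 had 5, 5 and 6 counts in Sens RIP, 2, 6 and 8 in Res RIP, 14, 8 and 15 in Sens IgG and none in Res IgG (log2 change of enrichment 5.83, SE 1.28, edgeR adjusted p = 0.000226). In both, the IgG counts differed between lines without overlap.

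Enrichment fell for hsa_circ_0084615 and hsa_circ_0002483, which had no Sens IgG count. hsa_circ_0084615 had 2, 5 and 9 counts in Sens RIP, 3, 1 and 1 in Res RIP and 6, 8 and 14 in Res IgG. On the TMM scale its RIP level was at least 11.5-fold above IgG in Sens, while in Res the IgG level was 3.62-fold above the RIP (95% counting interval 1.38 to 12.01; log2 change of enrichment -7.95, SE 1.36, edgeR adjusted p = 1.09e-06). The IgG level in Res was 7.17-fold above the RIP with column totals, but with ERCC totals the RIP was 21.7-fold above IgG. hsa_circ_0002483 had 10, 4 and 2 counts in Sens RIP, 5, 16 and 12 in Res RIP and 7, 18 and 22 in Res IgG (log2 change of enrichment -6.03, SE 1.18, edgeR adjusted p = 3.14e-05). The RIP libraries of the lines overlapped for both.

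The submitters measured enrichment as a difference, RIP minus IgG in RPM (reads scaled to a library total, of which kind is not stated), and took a delta of Res minus Sens below 0 as a loss of association. Taken per library over its circRNA counts, the delta was below 0 for 151 of 259 members (58.3%), beside 58.5% of all circRNAs tested. Its median over members was -237 RPM, and it ran from -5162 RPM for hsa_circ_0000437 to 4929 RPM for hsa_circ_0001165. Among members seen only in Res IgG it was below 0 in 136 of 154, among those in both in 14 of 54, and among those seen only in Sens IgG in 1 of 51. A group at 0 in IgG fixes the sign of the IgG term of the delta, so the split and the delta are not independent. With all counts of a library, ERCC included, as the total, the delta was below 0 for 118 members (45.6%), beside 51.6% of all circRNAs tested. Per 1000 ERCC counts the delta was below 0 for 66 members (25.5%), beside 37.9% of all circRNAs tested, and on that scale the split was 36 of 154, 16 of 54 and 14 of 51. hsa_circ_0000437, the lowest on the RPM scale, was above 0 on that scale, at 11.7. The members' deltas below 0 thus had no fixed number, nor a fixed identity, across the scales.

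Circular RNAs of the same RIP abundance with no IgG count numbered 327, of which 269 passed the filter of at least 2 counts in at least 3 libraries. All 259 members passed it. In the RIP, 6 of the 269 (2.23%) were called, 4 higher and 2 lower in Res, with a median log2 change of 0.31. Of the 57 circRNAs with over 60 RIP counts, 12 (21.1%) were called, 7 higher and 5 lower, with a median of 0.01 and a median RIP sum of 114. The difference between these shares was not tested.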

How the data were processed

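The authors' deposited table gives raw read counts of each circRNA and each ERCC transcript. Per the submitters' processing notes the build is GRCh37. Per the labels' protocols the authors scaled to the spike-in with RUVSeq, which the deposited counts do not carry, and spike-in totals were used here as an alternative. The aligner, the circRNA caller and the counting rule are not given in the sources used here. circRNAs that overlap or share a junction may share reads. The 57 ERCC transcripts stayed out of library sizes and tests.

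Members and lists were chosen with earlier results of these data known. The filter asked for 2 counts or more in 3 libraries or more and kept 1307 circRNAs. The test was that of edgeR 4.0.16 (R 4.3.3; quasi-likelihood, TMM, all 12 libraries, 1 coefficient per group, Benjamini-Hochberg over all tested). The prior degrees of freedom were infinite, so spread was shared across circRNAs. Named members were, per comparison and direction, the first 2 by p among calls whose groups did not overlap, plus those with the most RIP, most IgG and evenest RIP counts. CPM use TMM-scaled circRNA totals. Counting intervals are exact 95% intervals of ratios of summed counts scaled with TMM, and, like the 3-count limit, reflect counting error alone, because without molecular identifiers PCR copies count as separate reads. Every pair of replicates but one differed by more than sampling noise at p under 0.05 (chi-square over circRNAs), and none was merged. On simulated counts, the RIP comparison recovered 56% of 4-fold and 98% of 8-fold increases, 14% of decreases to 0.25 and 34% of decreases to 0.125. It called 0.0903% of unchanged circRNAs. The simulation gave all circRNAs 1 common spread, as the fit assumes. It changed circRNAs drawn from all those tested with a mean of at least 1 RIP count per library, not from the members alone. These rates therefore need not hold for the real counts of the members. Alternatives were column and spike-in totals, other filters, library sizes from tested circRNAs, DESeq2 1.42.0, limma-voom (limma 3.58.1), a replicate block, IgG libraries summed, the compared libraries alone and leaving out each library.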

Additional observations from a re-analysis of the deposited data

Results flagged for a closer look

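The effect of the antibody differed between the lines for 107 members by the interaction term of edgeR's fit, which shares its libraries with the comparisons between lines. By the same test the log2 change of enrichment from Sens to Res was 6.16 for hsa_circ_0001165, 5.83 for hsa_circ_0000816, -7.95 for hsa_circ_0084615 and -6.03 for hsa_circ_0002483. In each of these 4, 1 IgG group was at 0, so the fitted size is no bound.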

How the results depend on the processing

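Of the 9 members called between the RIP groups, the number was 19 with spike-in totals (17 higher), 17 with at least 5 counts in 3 libraries, where 142 members were tested, and 14 with limma-voom. Column totals, DESeq2, no filter, the 6 RIP libraries alone, IgG libraries summed and library sizes from tested circRNAs, added after seeing the data, gave 6 to 12. The 202 IgG calls became 108 with the stricter filter, and the 107 enrichment calls became 66 with no filter. Leaving out 1 library gave 1 to 11 RIP calls, 166 to 205 IgG calls, 47 to 103 enrichment calls and 148 to 157 members with a delta below 0. That number was 151, 118 with all counts of a library as the total and 66 per 1000 ERCC counts. Members with a higher mean in Res RIP than in Res IgG numbered 176, and 110 with column totals, also added after seeing the data. Apart from the fewer members tested under the stricter filter, the cause was not tested. The 9 RIP calls, and the IgG and enrichment calls of the members named for those comparisons, kept their direction in every setting run.

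Same-numbered libraries of different groups showed no shared deviation (correlations -0.0744 to 0.0323 over 18 pairs, with 2 of 12 libraries closest to their own number). Pairs with different numbers had correlations of -0.0363 to 0.0737 (36 pairs). With so few counts per circRNA, this cannot tell whether same-numbered libraries share a culture or lysate. For the enrichment change, the naming rule judged overlap on RIP minus IgG differences taken by replicate number. With a replicate block, 5 RIP, 193 IgG and 90 enrichment calls were made. The median SE of a RIP log2 change was 0.88 over the members.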
